A study of Mus musculus with 8 samples.

Results

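The transcripts of 10 integrin subunits carried by leukocytes were followed in cells sorted from the tail tumors of TAX-LUC mice. These were Itgal, Itgam, Itgax, Itgb2, Itga4, Itgb1, Itgb7, Itgav, Itga6 and Itga2, chosen by name from the 19938 genes that have a probe set annotated to 1 gene symbol alone. Each of the 10 had exactly 1 such probe set, so no choice between probe sets was needed. Another 3 probe sets are annotated to both Rpl35, a ribosomal protein gene, and Itgam, and were left out because their signal cannot be given to either gene. TAX-LUC mice carry the Tax oncogene under the human granzyme B promoter and a luciferase reporter driven by the viral LTR, and both transgenes were present in every mouse used. The mice were IL-15-/- or IL-15+/+. Tumors arose spontaneously and were excised at 14 months in the mouse numbered replicate 1 and at 12 months in the mouse numbered replicate 2 of each genotype. From each of the 4 mice a CD16/32HI population, labelled malignant, and a CD16/32LO population, labelled tumor infiltrating, were sorted after Fc block. This gave 8 arrays with 2 in each group. The study describes the CD16/32HI cells as rich in malignant large granular lymphocytes.

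Integrins are receptors made of 1 α and 1 β subunit that hold leukocytes to the vessel wall, to other cells and to matrix. The β2 subunit Itgb2 (CD18) pairs with Itgal to form LFA-1, which binds ICAMs, with Itgam (CD11b) to form Mac-1, the integrin of neutrophils and macrophages that binds complement fragments and fibrinogen, and with Itgax (CD11c) to form a related complement receptor. Itga4 pairs with Itgb1 to form VLA-4, which binds VCAM-1 and fibronectin, or with Itgb7 to form the gut homing receptor for MAdCAM-1. Itgb1 also pairs with Itga6, in a laminin receptor, and with Itga2, in a collagen receptor. Itgav is the α subunit of several receptors for vitronectin and other RGD proteins. A transcript level says nothing of how much heterodimer reaches the surface, because a subunit without its partner is as a rule retained in the cell.

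RefSeq promoter windows (build GRCm38.p6, 250 bases before to 50 bases after the annotated start) were found for 7 of the 10 genes, namely Itgam, Itgax, Itga4, Itgb1, Itgb7, Itgav and Itga2. The windows of Itgam (chr7:128062390-128062689, + strand), Itgax (chr7:128129300-128129599, + strand) and Itga4 (chr2:79255176-79255475, + strand) are shown because these 3 α subunit transcripts moved together between the sorted populations. Capitals mark the PU.1-type ETS motif GAGGAA and the RUNX motif TGTGGT, each on either strand, which are binding sequences of myeloid and lymphoid transcription factors.
Itgam: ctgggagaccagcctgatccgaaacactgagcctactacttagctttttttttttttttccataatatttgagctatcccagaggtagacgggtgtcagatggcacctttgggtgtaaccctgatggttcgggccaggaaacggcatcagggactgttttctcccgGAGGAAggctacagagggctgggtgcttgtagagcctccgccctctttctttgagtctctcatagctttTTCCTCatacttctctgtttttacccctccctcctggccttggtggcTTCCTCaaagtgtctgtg
Itgax: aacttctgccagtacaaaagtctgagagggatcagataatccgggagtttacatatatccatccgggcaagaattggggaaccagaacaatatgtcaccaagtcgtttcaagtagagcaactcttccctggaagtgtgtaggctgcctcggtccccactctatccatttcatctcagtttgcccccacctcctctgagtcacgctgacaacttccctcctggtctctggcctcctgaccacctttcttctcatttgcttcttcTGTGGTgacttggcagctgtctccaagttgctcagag
Itga4: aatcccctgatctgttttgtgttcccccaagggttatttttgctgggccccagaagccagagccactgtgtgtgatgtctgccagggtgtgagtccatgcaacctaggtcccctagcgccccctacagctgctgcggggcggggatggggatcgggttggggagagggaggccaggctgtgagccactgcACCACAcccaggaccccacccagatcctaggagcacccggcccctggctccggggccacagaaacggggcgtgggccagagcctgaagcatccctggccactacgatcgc
GAGGAA occurred 3 times in the Itgam window and in no other of the 3 shown, while TGTGGT occurred once in each of Itgax and Itga4 and not in Itgam. Among all 32851 windows of this length 28.3% held GAGGAA and 16.8% held TGTGGT. Of the 7 windows, GAGGAA was found in 4 (Itgam, Itgb1, Itgb7 and Itgav) and TGTGGT in 2 (Itgax and Itga4). The SP1 motif GGGCGG, searched on both strands, was in 5 of the 7 (Itgam, Itga4, Itgb1, Itgav and Itga2), against 35.7% of all windows. The AP-1 motif TGANTCA was in Itgax alone (7.81% of all windows), as was CCAAT (37.4%), and TATAAA was in 0 of the 7 (13.6%). The GAGGAA and TGTGGT matches do not overlap each other. A match is a description of these letters and not a measured site.

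Signals were RMA values, which are log2 probe set intensities after background correction and normalization, so that 1 unit is a factor of 2. Array medians lay between 5.62 and 5.93 and were on average higher on the IL-15-/- arrays, by 0.133 in the CD16/32HI and 0.119 in the CD16/32LO population. Arrays that share exactly equal values were taken as normalized together, which gave 3 normalization sets. By this reading each genotype was a set of its own in replicate 2. Xist read 10.08 to 10.75 on the 4 IL-15-/- arrays and 3.92 to 4.64 on the 4 IL-15+/+ arrays, while Eif2s3y of the Y chromosome read 2.82 to 3.36 on the IL-15-/- and 9.10 to 9.47 on the IL-15+/+ arrays, so genotype and sex cannot be told apart in any comparison between genotypes. Il15 read 6.31, 5.22, 5.45 and 6.54 in IL-15-/- arrays (CD16/32HI replicates 1 and 2, then CD16/32LO) and 5.40, 5.18, 6.42 and 6.88 in IL-15+/+ arrays. Its probe set includes probes outside the deleted exons, so it does not check the genotype. The list of NK and granular lymphocyte genes, set against itself, was lower on the CD16/32HI than on the CD16/32LO array of each of the 4 mice, at 4.98 and 5.04 in IL-15-/- and 5.95 and 5.61 in IL-15+/+ CD16/32HI cells, and at 5.09 and 5.36 in IL-15-/- and 7.31 and 7.12 in IL-15+/+ CD16/32LO cells. Gzmb, the mouse granzyme B gene and not the human promoter that drives Tax, read 4.50 and 4.81 in IL-15-/- CD16/32HI cells. In IL-15+/+ CD16/32HI cells it read 6.18 and 4.87. The replicate 1 IL-15-/- mouse counted here has other markers that go against its labels, as given below. In the replicate 2 IL-15-/- mouse Klrd1, Klrk1 and Prf1 were higher in CD16/32HI cells, by 0.13, 0.33 and 0.21. The rest of the list was lower there. Klrd1 read 7.76 and 7.87 in IL-15+/+ CD16/32HI cells and 8.72 and 9.37 in IL-15+/+ CD16/32LO cells. The list means go against the study's description of the CD16/32HI population as rich in large granular lymphocytes. Both populations are therefore called by their gate.

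The labels of 1 mouse went against its markers, and this bears on every result. C1qa, a complement component made by macrophages, read 7.68 on the array labelled CD16/32HI and 10.73 on the array labelled CD16/32LO of the replicate 1 IL-15-/- mouse, whereas the other 3 mice read 10.10 to 11.43 in CD16/32HI cells and 7.94 to 8.16 in CD16/32LO cells. Csf3r, the G-CSF receptor of neutrophils, ran the opposite way, at 10.74 on the CD16/32HI array and 7.32 on the CD16/32LO array of this mouse, and at 7.15 to 7.46 and 10.37 to 10.42 in the others. The libraries are named by their labels, and results are given with and without this mouse.

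**Figure D1:**
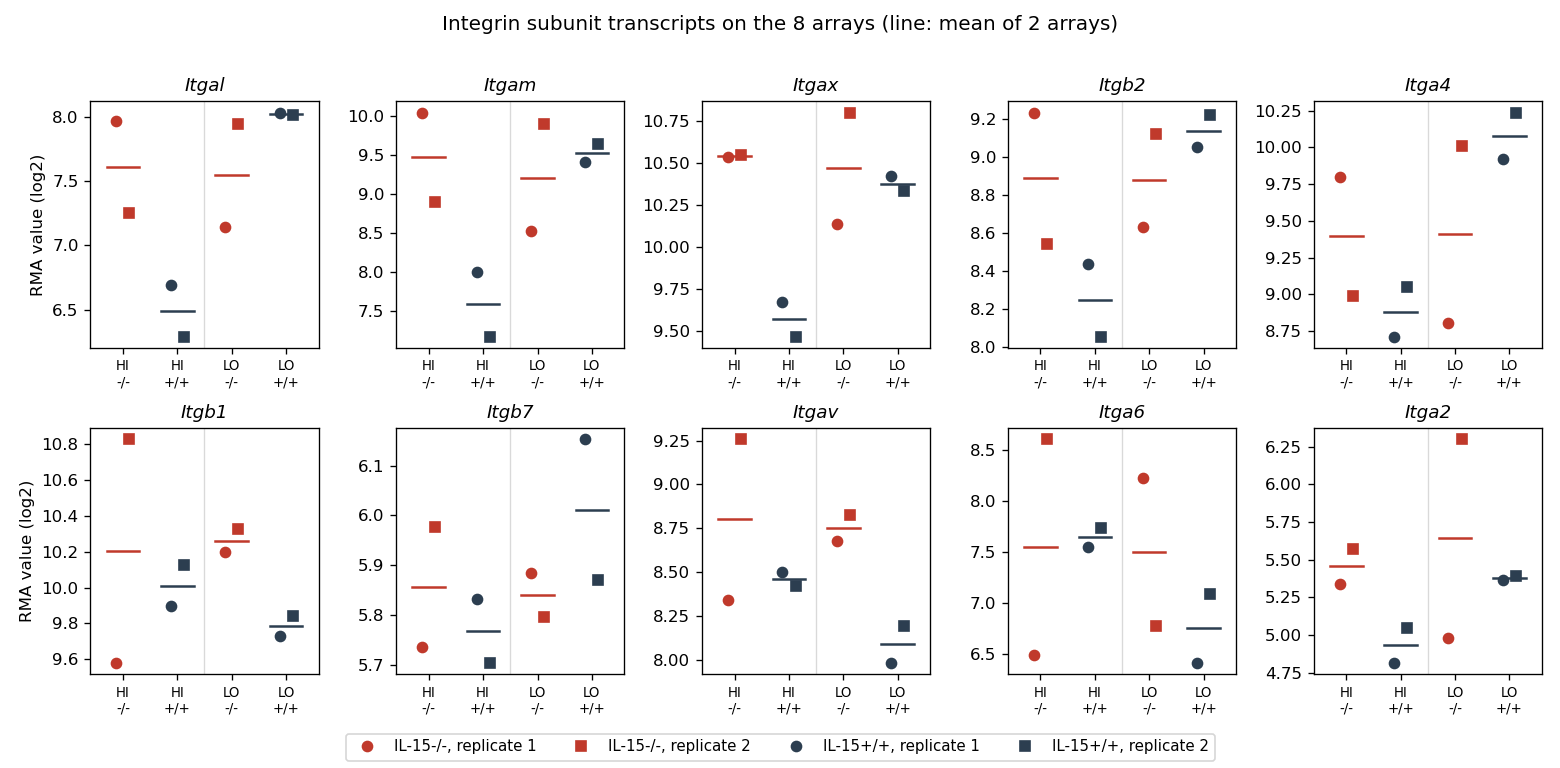
RMA values (log2) of the 10 subunits on the 8 arrays, with 1 panel per gene and its own vertical range. HI and LO are the CD16/32 populations, -/- and +/+ the IL-15 genotypes, circles replicate 1, squares replicate 2, and lines the mean of 2 arrays. For Itgam the CD16/32HI arrays of IL-15-/- mice read 10.05 and 8.90 and those of IL-15+/+ mice 7.996 and 7.17.

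Itgb2 and the 3 α subunits that pair with it were each lowest on the CD16/32HI arrays of the IL-15+/+ mice. Itgal read 7.97 and 7.25 in CD16/32HI cells of the IL-15-/- mice (replicates 1 and 2) and 6.69 and 6.29 in those of the IL-15+/+ mice. In CD16/32LO cells it read 7.14 and 7.94 in IL-15-/- mice and 8.03 and 8.01 in IL-15+/+ mice. The CD16/32HI signals of the IL-15-/- mice thus lay between those of IL-15+/+ CD16/32HI and IL-15+/+ CD16/32LO cells. Itgam read 10.05 and 8.90 in IL-15-/- and 7.996 and 7.17 in IL-15+/+ CD16/32HI cells, and 8.52 and 9.91 in IL-15-/- and 9.41 and 9.65 in IL-15+/+ CD16/32LO cells, with the widest span of the β2 genes. Its highest value was the CD16/32HI array of the replicate 1 IL-15-/- mouse. Their shared partner Itgb2 followed, at 9.23 and 8.54 in IL-15-/- and 8.44 and 8.06 in IL-15+/+ CD16/32HI cells, and at 8.63 and 9.12 in IL-15-/- and 9.05 and 9.22 in IL-15+/+ CD16/32LO cells. Itgax differed in that both IL-15-/- CD16/32HI arrays stood at 10.54, against 9.67 and 9.47 in IL-15+/+, while CD16/32LO cells read 10.14 and 10.80 in IL-15-/- and 10.42 and 10.33 in IL-15+/+ mice.

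As a description over the 8 arrays, the Pearson r was 0.98 between Itgal and Itgb2, 0.97 between Itgam and Itgb2 and 0.97 between Itgal and Itgam, and it was 0.80 between Itgax and Itgb2. Itga4 ran with the β2 genes (r of 0.86 with Itgal and 0.85 with Itgb2) more than with Itgb1 (-0.41) or Itgb7 (0.13), the β subunits it can pair with. Itgb1, Itgav and Itga6 formed another group, with r of 0.91 between Itgb1 and Itgav, 0.76 between Itgb1 and Itga6 and 0.71 between Itgav and Itga6, and Itga6 ran against Itga4 (-0.79) and Itgb2 (-0.71). The 8 arrays share mice, gates and normalization sets, so these values carry no test.

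VLA-4 and its relatives came next. Itga4 read 9.80 and 8.99 in IL-15-/- and 8.71 and 9.05 in IL-15+/+ CD16/32HI cells, and 8.80 and 10.01 in IL-15-/- and 9.92 and 10.24 in IL-15+/+ CD16/32LO cells. Outside the replicate 1 IL-15-/- mouse, the 3 CD16/32HI arrays all lay below the 3 CD16/32LO arrays. Itgb1, the common β1 subunit, read 9.58 and 10.83 in IL-15-/- and 9.90 and 10.13 in IL-15+/+ CD16/32HI cells, and 10.20 and 10.32 in IL-15-/- and 9.73 and 9.84 in IL-15+/+ CD16/32LO cells. Both of the CD16/32LO arrays of IL-15-/- mice lay above both of IL-15+/+ mice. Itgb7 was dim, between 5.70 and 6.15 on all 8 arrays and so close to the array medians, and spread over 0.45 log2 units, the smallest span of the 10.

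Of the remaining α subunits, Itgav read 8.34 and 9.26 in IL-15-/- and 8.50 and 8.42 in IL-15+/+ CD16/32HI cells, and 8.68 and 8.83 in IL-15-/- and 7.98 and 8.19 in IL-15+/+ CD16/32LO cells. Itga6, the laminin receptor subunit, had 6.49 and 8.61 in IL-15-/- and 7.55 and 7.74 in IL-15+/+ CD16/32HI cells, and 8.22 and 6.78 in IL-15-/- and 6.42 and 7.09 in IL-15+/+ CD16/32LO cells. Its 2 IL-15-/- arrays spanned the IL-15+/+ pair in CD16/32HI cells. Itga2, the collagen receptor subunit, lay below the array median on 7 of the 8 arrays, at 5.34 and 5.57 in IL-15-/- and 4.82 and 5.05 in IL-15+/+ CD16/32HI cells and at 4.98 and 6.30 in IL-15-/- and 5.37 and 5.39 in IL-15+/+ CD16/32LO cells. The single high value was the CD16/32LO array of the replicate 2 IL-15-/- mouse.

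In that mouse Dcn, a proteoglycan of fibroblasts, also stood apart, at 9.25 and 10.45 in CD16/32HI and CD16/32LO cells, against 5.06 to 6.51 on the other 6 arrays. Its CD16/32HI array held the highest Itgb1, Itgav and Itga6 values and its CD16/32LO array the highest Itgax and Itga2 values of the 8. The collagens of the fibroblast list did not follow Dcn. Col1a1 read 6.39 and 6.56 on the 2 arrays of this mouse and 6.20 to 6.79 on the other 6, and Col3a1 5.72 and 5.60, against 5.27 to 5.94.

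Between the sorted populations, 6 of the 10 subunits fell and 1 rose in CD16/32HI relative to CD16/32LO cells of the 3 mice other than the replicate 1 IL-15-/- mouse. Itgam, Itgal, Itga4, Itgb2, Itgax and Itga2 were lower in CD16/32HI cells, and Itga6 was higher. The test was limma with a term for each mouse, over 21789 probe sets with 1 gene symbol, called at an adjusted p under 0.05 (Benjamini-Hochberg). In these 3 mice it called 14.3% of all probe sets, 6.67% as risen and 7.62% as fallen. The replicate 1 IL-15-/- mouse was left out because its markers ran against its labels on these same arrays. Calls and adjusted p values of the 3 mice do not allow for that choice and are to be read as a description. In bulk RNA, fewer cells of a type and less RNA per cell cannot be told apart.

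With all 4 mice 0 subunits and 0 genes in all passed, with 0 subunits and 257 genes at an unadjusted p under 0.05, and the interval for Itgam ran from -2.42 to 0.74. None of the 10 kept 1 sign in all 4 mice, against 4.14% of probe sets higher and 3.02% lower in CD16/32HI cells of every mouse. In the 3 mice Itgb1, Itgav and Itga6 were higher in each (23.8% of probe sets) and Itgal, Itgam, Itgax, Itgb2, Itga4 and Itga2 lower in each (22.8%).

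The CD16/32HI minus CD16/32LO difference of Itgam was 1.53 and -1.004 in the IL-15-/- mice (replicates 1 and 2) and -1.41 and -2.48 in the IL-15+/+ mice. Without the first of these mice it averaged -1.63, a 3.10-fold lower signal (SE 0.247, 95% interval -2.19 to -1.07, n = 3 mice, adjusted p = 0.00239 from limma). Each of the other 3 mice was lower in CD16/32HI cells. For Itgal the differences were 0.82 and -0.69 in IL-15-/- and -1.34 and -1.72 in IL-15+/+ mice, with a mean over the 3 mice of -1.25, or 2.38-fold lower (SE 0.196, interval -1.70 to -0.81, adjusted p = 0.00288). Among the 3 mice Itga4 was more even than Itgal and Itgam. It differed by 0.997 and -1.02 in IL-15-/- and by -1.21 and -1.19 in IL-15+/+ mice, and fell by 1.14 on the log2 scale, 2.20-fold (SE 0.139, adjusted p = 0.000808).

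The shifts of the other β2 genes were smaller. Itgb2 differed by 0.60 and -0.58 in IL-15-/- and by -0.62 and -1.17 in IL-15+/+ mice, and fell by 0.79 in the 3 mice (1.72-fold, SE 0.163, adjusted p = 0.0116). Itgax, at 0.40 and -0.25 in IL-15-/- and -0.75 and -0.86 in IL-15+/+ mice, fell by 0.62 (1.54-fold, interval -0.99 to -0.26, adjusted p = 0.0328). Itga2 differed by 0.36 and -0.73 in IL-15-/- and by -0.55 and -0.34 in IL-15+/+ mice, a mean of -0.54 (adjusted p = 0.0376) in a dim probe set. Itgax and Itga2 were called nearest the threshold, and leaving out the replicate 1 IL-15+/+ mouse as well left neither called, at adjusted p = 0.208 and 0.19. Itgax was also lost without the replicate 2 IL-15+/+ mouse (0.0902), and Itga2 without the replicate 2 IL-15-/- mouse (0.183) or with each array centred on its median (0.0523).

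Itga6 ran the other way. It differed by -1.73 and 1.84 in IL-15-/- and by 1.14 and 0.65 in IL-15+/+ mice, and rose by 1.21 in CD16/32HI cells of the 3 mice (2.31-fold, SE 0.211, interval 0.73 to 1.69, adjusted p = 0.00508). Itgav (0.40, interval 0.07 to 0.72, adjusted p = 0.107) and Itgb1 (0.32, interval -0.01 to 0.64, adjusted p = 0.199) were above 0 in each of the 3 mice and did not pass, although Itgav did after quantile normalization (0.51, adjusted p = 0.0337). Itgb7 differed by -0.10 (interval -0.45 to 0.24), with 1 mouse above 0 and 2 below. The replicate 1 IL-15-/- mouse had the opposite sign from the other 3 for 9 of the 10 genes, all but Itgb7.

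**Figure D2:**
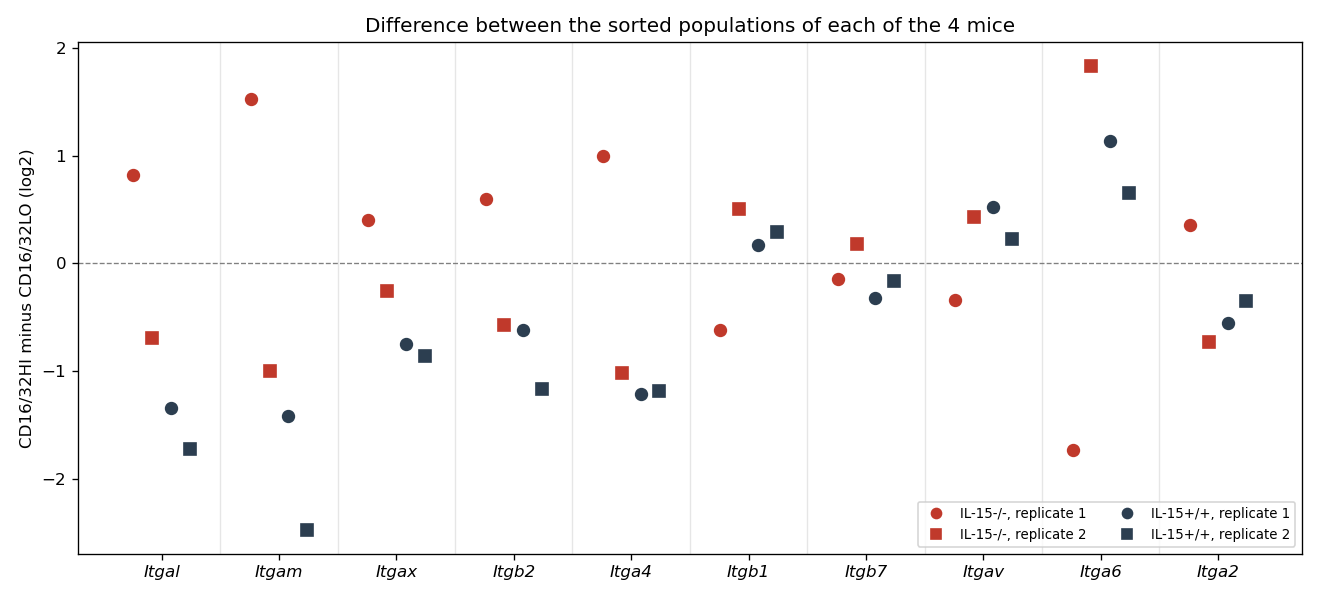
CD16/32HI minus CD16/32LO difference of RMA values (log2) in each mouse, for the 10 subunits, with IL-15-/- mice in red, IL-15+/+ mice in dark blue, circles for replicate 1 and squares for replicate 2. The red circles lie on the other side of 0 from the remaining 3 points for 9 of the 10 genes, as for Itga6 (-1.73 against 1.84, 1.14 and 0.65).

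Markers of several cell types moved with these differences. The 10 neutrophil markers averaged 8.05, 8.32 and 8.04 on the CD16/32HI arrays of the 3 mice and 10.67, 10.28 and 10.63 on the CD16/32LO arrays (the IL-15-/- mouse first), and all 10 fell in CD16/32HI cells. The 9 macrophage markers averaged 11.20, 10.86 and 10.51 on the CD16/32HI arrays and 9.05, 9.08 and 8.89 on the CD16/32LO arrays, and 8 of the 9 rose. The mouse left out was set apart by markers of these same lists, so their calls in the 3 mice were largely fixed by that choice. With all 4 mice 0 genes of either list were called. In the replicate 1 IL-15-/- mouse the neutrophil list averaged 10.93 on the CD16/32HI and 8.46 on the CD16/32LO array, and the macrophage list 8.84 and 10.93. Lymphoid and dendritic lists also moved in the 3 mice, where 5 of 10 NK and granular lymphocyte genes, 6 of 9 T cell genes, 3 of 5 B cell genes and 3 of 6 dendritic cell genes fell in CD16/32HI cells, and 1 T cell gene rose. Of all probe sets 7.62% fell and 6.67% rose in these mice, the shares to set beside each of these lists. Of 4 platelet genes Pf4 (2.75) and Ppbp (2.13) rose, and Gp9 (0.07) and Treml1 (0.13) did not pass. The part of the cell mixture in the integrin differences was not tested.

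**Figure D3:**
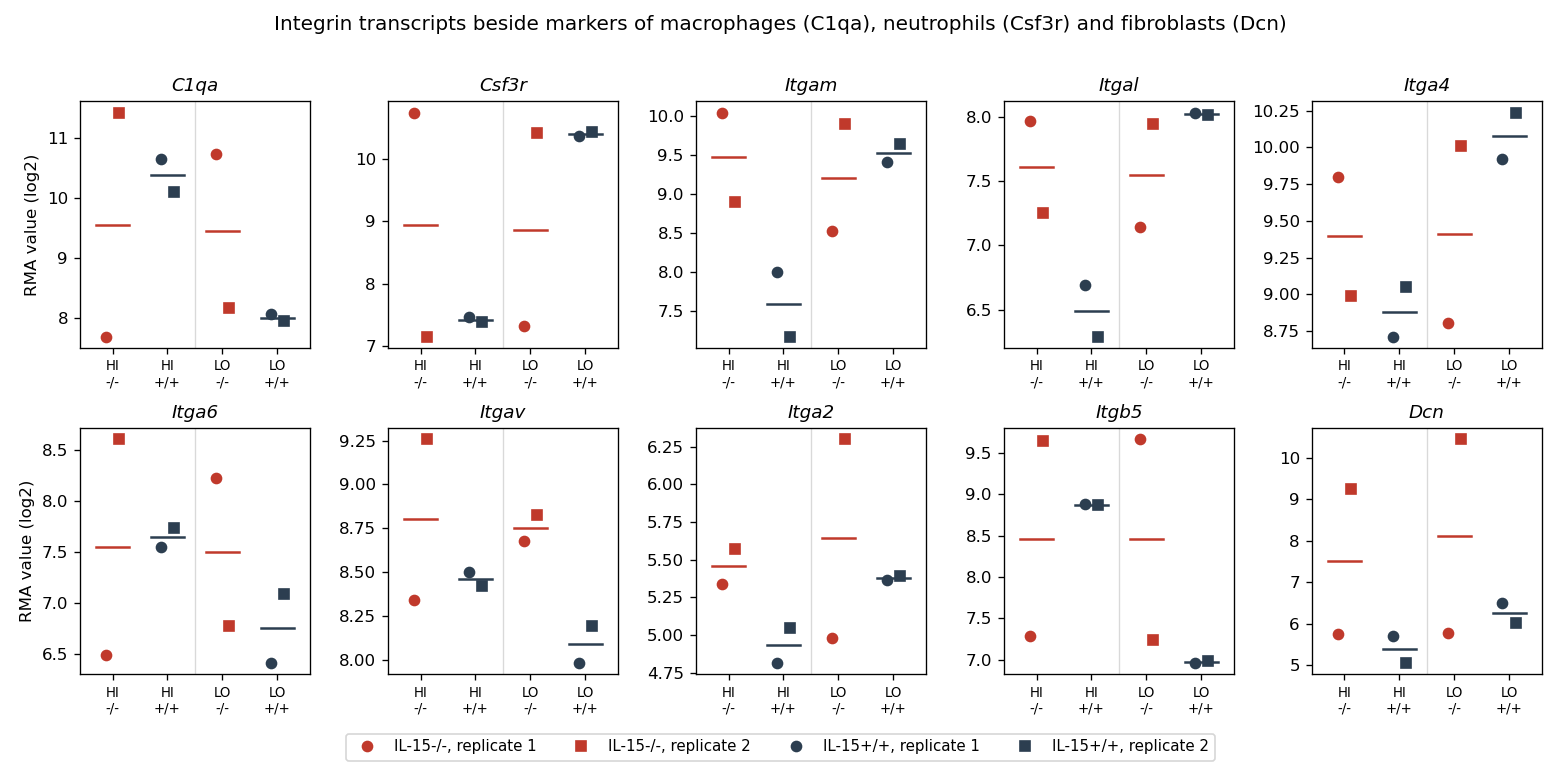
RMA values (log2) of C1qa (macrophages), Csf3r (neutrophils) and Dcn (fibroblasts) beside 7 integrin genes on the 8 arrays, with axes and symbols as in the plot of all 10 subunits. On the arrays of the replicate 1 IL-15-/- mouse (red circles) Csf3r read 10.74 in CD16/32HI and 7.32 in CD16/32LO cells, and Itgb5 7.28 and 9.67. Dcn is high on both arrays of the replicate 2 IL-15-/- mouse (9.25 and 10.45).

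Between genotypes in CD16/32HI cells, the 3 α subunits of the β2 family had the widest differences by mean signal, and 0 of the 10 subunits passed the test. Itgam averaged 9.48 ± 0.81 in IL-15-/- and 7.58 ± 0.59 in IL-15+/+ cells (SD, n = 2 each), a difference of 1.89 or 3.72-fold (SE 0.52, interval 0.71 to 3.08, adjusted p = 0.854 from limma over all 8 arrays). For Itgal the means were 7.61 ± 0.50 and 6.49 ± 0.28 (difference 1.12, SE 0.342, interval 0.34 to 1.90), and for Itgax 10.54 ± 0.01 and 9.57 ± 0.14 (0.97, SE 0.265, interval 0.37 to 1.57). The test called 5 of the 21789 probe sets (0.0229%). Itgam, Itgal and Itgax, 3 of the 10, were under 0.05 before adjustment, as were 1070 probe sets, and the intervals given are those of each gene alone. This fit has no mouse term and treats the 2 arrays of a mouse as independent. An unmoderated test on the 4 CD16/32HI arrays alone left 1 subunit and 1045 probe sets under 0.05 before adjustment. A block for the normalization set also left 1 subunit, with 429 probe sets.

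Within the replicate numbers the difference of Itgam was 2.05 in replicate 1 and 1.74 in replicate 2, that of Itgal 1.28 and 0.96, that of Itgax 0.87 and 1.08, and that of Itgb2 0.80 and 0.49. By the sets inferred from equal values, only in replicate 1 were both genotypes normalized together. The groups did not overlap, with both IL-15-/- arrays higher, for Itgal, Itgam, Itgax, Itgb2 and Itga2, 5 of 10, against 24.1% of all probe sets, and 0 of 10 were lower without overlap, against 10.4%. After each array was centred on its median 4 of 10 were higher, without Itga2, against 15.9%, and 0 lower, against 19.6%. Itga4 (0.51), Itga2 (0.52), Itgav (0.34), Itgb1 (0.19), Itgb7 (0.09) and Itga6 (-0.10) had intervals that included 0. The signs of Itgb1 and Itgb7 turned under another scaling.

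Replicate 1 of the IL-15-/- mice is the mouse that went against its labels, and its CD16/32HI array carried a neutrophil list mean of 10.93, against 8.05 in the other IL-15-/- mouse and 8.32 and 8.04 in the IL-15+/+ mice. Without it the difference of Itgam was 1.32, that of Itgal 0.76, that of Itgax 0.97 and that of Itgb2 0.30, from 1 IL-15-/- array against 2 IL-15+/+ arrays. Itgb1 was then at 0.82, Itgav at 0.80, Itga4 at 0.11 and Itga6 at 0.96. The lone array is taken to vary as the other groups do, and 0 subunits passed (9 probe sets, 0.0413%).

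**Figure D4:**
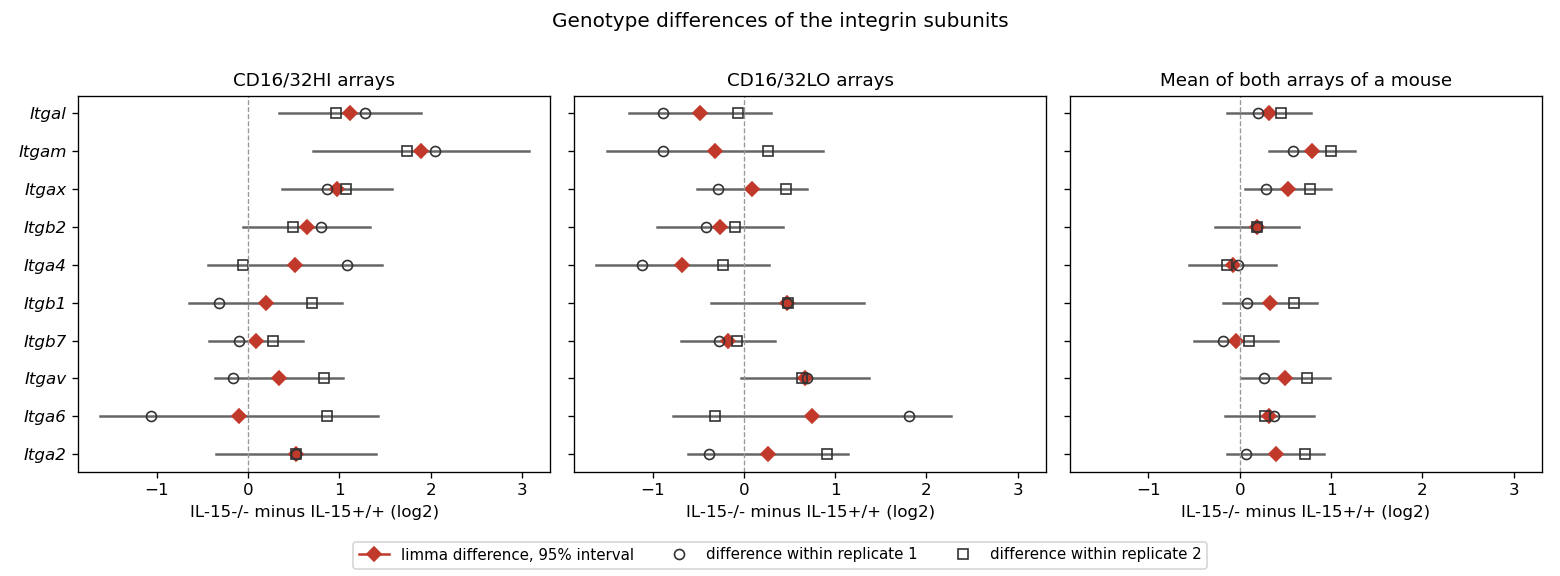
IL-15-/- minus IL-15+/+ difference of RMA values (log2) for the 10 subunits, with panels for CD16/32HI arrays, for CD16/32LO arrays and for the mean of both arrays of a mouse. Diamonds and bars are the limma difference with its 95% interval, circles and squares the differences within replicates 1 and 2. In CD16/32HI cells the bars of Itgal, Itgam and Itgax lie above 0, and 0 of the 10 passed at an adjusted p under 0.05 in any panel.

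In CD16/32LO cells no subunit passed either, and Itgal and Itgam were lower by mean signal. Itgal averaged 7.54 ± 0.57 in IL-15-/- and 8.02 ± 0.01 in IL-15+/+ cells (difference -0.48, SE 0.342, interval -1.26 to 0.30), Itgam differed by -0.31 (interval -1.50 to 0.87) and Itgax by 0.09 (interval -0.51 to 0.69). Itgav averaged 8.75 ± 0.10 in IL-15-/- and 8.09 ± 0.15 in IL-15+/+ cells (0.67, interval -0.03 to 1.37), and Itgb1 10.26 ± 0.09 and 9.78 ± 0.08 (0.48, interval -0.36 to 1.32). Both kept their size within replicate 1 (0.70 and 0.47) and replicate 2 (0.63 and 0.49). Itga4 was at -0.67, Itgb2 at -0.26, Itgb7 at -0.17, Itga6 at 0.75 and Itga2 at 0.26, each with an interval that included 0. The adjusted p rounded to 1 for all 10, and the test called 8 probe sets (0.0367%), with 0 subunits and 417 probe sets at an unadjusted p under 0.05. The unmoderated test on the 4 CD16/32LO arrays alone put 2 subunits and 778 probe sets under 0.05 before adjustment.

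Both IL-15-/- arrays lay above both IL-15+/+ arrays for Itgb1 and Itgav (24.2% of all probe sets), and below them for Itgal (4.7%). After centring these were Itgb1 and Itgav (14.5%), and Itgal and Itgb7 (11.8%). Without the replicate 1 IL-15-/- mouse Itgal was at -0.079, Itga4 at -0.069, Itgb2 at -0.017 and Itga6 at 0.021 in CD16/32LO cells, so that little of these differences was left. Itgam was then at 0.38, Itgax at 0.42 and Itga2 at 0.92, and 0 subunits passed (26 probe sets, 0.119%). The NK and granular lymphocyte list differed between the genotypes, at 5.09 and 5.36 in IL-15-/- and 7.31 and 7.12 in IL-15+/+ CD16/32LO cells. Averaged over both populations of all 4 mice, 6 of its 10 genes fell in IL-15-/- mice, against 0.119% of all probe sets. Among them were Gzma (-2.46), Nkg7 (-1.93) and Klrd1 (-1.71). LFA-1 and VLA-4 are carried by such lymphocytes, and the part of their RNA in the Itgal and Itga4 values was not tested.

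The mean of both arrays of a mouse does not depend on which is labelled CD16/32HI. On this scale Itgam was at 9.28 and 9.41 in the IL-15-/- mice (replicates 1 and 2) and at 8.70 and 8.41 in the IL-15+/+ mice, a difference of 0.79 or 1.73-fold (SE 0.223, interval 0.32 to 1.26, adjusted p = 0.397). The genotypes did not overlap, and the difference did not pass over all genes. With a term for the replicate number, which goes with age in both genotypes, it did (adjusted p = 0.0473 from limma). That fit called 214 probe sets (0.982%), against 37 (0.17%) without the term, and it leaves less to estimate the spread from. Itgax was at 10.34 and 10.67 in IL-15-/- and 10.05 and 9.90 in IL-15+/+ mice (0.53, interval 0.06 to 1.002, adjusted p = 0.96), and Itgav at 8.51 and 9.04 and at 8.24 and 8.31 (0.50, interval 0.01 to 0.99, adjusted p = 0.993).

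Itga2 (0.39), Itgb1 (0.34), Itga6 (0.33), Itgal (0.32), Itgb2 (0.19), Itgb7 (-0.04) and Itga4 (-0.08) had intervals that included 0. For Itga4, whose genotype difference was 0.51 in CD16/32HI and -0.67 in CD16/32LO cells, the mouse means of 9.30 and 9.50 in IL-15-/- and 9.32 and 9.64 in IL-15+/+ mice overlapped. The test called 37 probe sets (0.17%) and 0 subunits, and at an unadjusted p under 0.05 stood 3 subunits and 1065 probe sets. Without the replicate 1 IL-15-/- mouse 0 subunits passed (104 probe sets, 0.477%), with Itgam at 0.85, Itgb1 at 0.68 and Itga2 at 0.78. Mouse means did not overlap and were higher in IL-15-/- for 5 of 10 (Itgal, Itgam, Itgax, Itgb2 and Itgav), against 26.9% of all probe sets, and lower for 0 (6.28%). After centring they were higher for Itgal, Itgam and Itgax (14.6%) and lower for Itgb7 (16.3%).

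Whether the genotype difference itself differed between the populations was tested within mice. It was greater in CD16/32HI cells by 1.60 for Itgal (SE 0.568, interval 0.08 to 3.12, adjusted p = 0.878) and by 0.88 for Itgax (interval 0.05 to 1.71), and by 2.21 for Itgam with an interval from -0.34 to 4.76. By this test limma called 0 subunits and 0 probe sets in all, with 2 subunits and 578 probe sets under 0.05 before adjustment, and it called 0 and 0 without the replicate 1 IL-15-/- mouse. Without that mouse the difference was 0.84 for Itgal, 0.55 for Itgax and 0.94 for Itgam.

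The rest of the integrin family was measured by 17 other subunits. In the 3 mice 2 of them rose and 3 fell in CD16/32HI relative to CD16/32LO cells. Of all probe sets 6.67% rose and 7.62% fell in this test. Itgb5, a partner of Itgav, rose by 2.07 (4.21-fold, SE 0.157), from differences of -2.39 and 2.41 in IL-15-/- and 1.92 and 1.89 in IL-15+/+ mice, and Itga9, a partner of Itgb1, by 1.48. Itgae, the partner of Itgb7 on intraepithelial lymphocytes, fell by 1.22, Itgb2l by 1.09 and Itga1 by 0.51. Their median was 0.01, against -0.58 for the 10 subunits and 0.03 for all probe sets.

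Among 20 measured ligands, F11r (JAM-A), a ligand of LFA-1, rose by 1.92, Vcam1, the ligand of VLA-4, by 1.88 and fibronectin (Fn1) by 1.62, while Thbs1 fell by 1.37 and Icam1 by 0.56. These were 15% risen and 10% fallen, against 6.67% and 7.62% of all probe sets. Vcam1 read 6.69 and 10.31 in IL-15-/- and 9.61 and 9.34 in IL-15+/+ CD16/32HI cells, and 9.10 and 8.65 in IL-15-/- and 7.70 and 7.28 in IL-15+/+ CD16/32LO cells. Itga4, which encodes its receptor subunit, and Vcam1 thus had opposite signs in each of the 3 mice.

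Genes that act on the integrin tail or downstream of it numbered 29, of which 9 fell and 2 rose. That is 31.0% fallen, against 7.62% of all probe sets. The 6.90% risen was near the 6.67% of all probe sets. The kinases of integrin signaling led, with Fgr, a Src family kinase of myeloid cells, at -1.51, Syk at -1.49 and Ptk2b (PYK2) at -1.34. Cytip (-1.26), which binds cytohesin-1, and the Rap1 exchange factor Rasgrp2 (-1.22) also fell, as did Zyx, Vcl, Pxn and Vav1, by 0.81 to 0.64. Cyth1 (0.77), which encodes cytohesin-1, and Parvb (0.69) rose. Tln1, Fermt3, Rap1a and Rap1b, the core of integrin activation, were not among those called.

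Of 7 measured genes for rolling and junctional passage, Cd44 (-1.18), Pecam1 (-1.03), Jam3 (-1.02) and the selectin ligand Selplg (-0.73) fell and Cd99l2 (0.69) rose, against 7.62% and 6.67% of all probe sets. All of these called genes except Itga1 (-0.54) had the opposite sign in the replicate 1 IL-15-/- mouse, as for Fgr (1.70), Syk (1.497), Vcam1 (-2.42) and Cd44 (1.09).

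**Figure D5:**
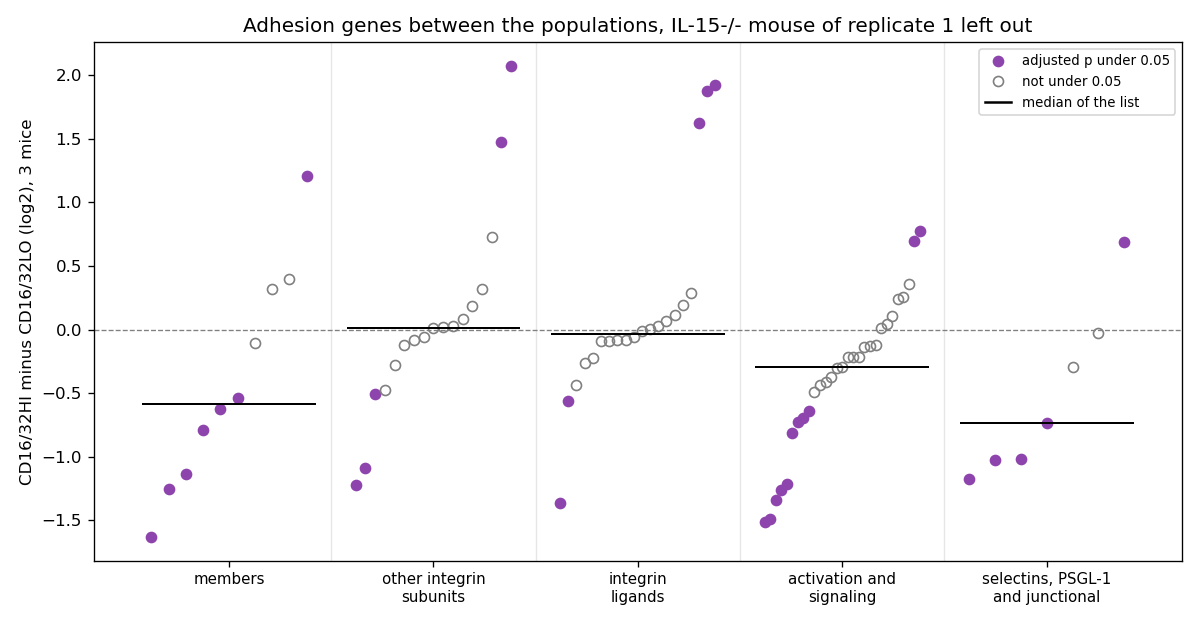
CD16/32HI minus CD16/32LO difference (log2, mean of 3 mice, without the replicate 1 IL-15-/- mouse) of each measured gene in 5 lists, with filled points for an adjusted p under 0.05 and bars for list medians. The 10 subunits (members) have a median of -0.58 and the 17 other integrin subunits 0.01.

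Between genotypes 0 genes of these lists passed in either population or over both. In CD16/32HI cells the largest differences without overlap were Fgr (1.24), Syk (1.18) and Ptk2b (1.10) of the activation list, Cd44 (1.02) and Pecam1 (0.93) of the rolling list and Itga5 (0.83), the fibronectin receptor subunit, of the other subunits. Fgr read 9.82 and 8.26 in IL-15-/- and 7.88 and 7.73 in IL-15+/+ CD16/32HI cells, and was highest on the array with the high neutrophil list. Without the replicate 1 IL-15-/- mouse the differences were 0.46 for Fgr, 0.36 for Syk, 0.70 for Ptk2b, 0.41 for Cd44, 0.81 for Pecam1 and 0.69 for Itga5. In CD16/32LO cells they were Fn1 (1.55) and Vcam1 (1.38) among ligands and Itgb5 (1.48) and Itga9 (1.43) among subunits, and in the activation list Cytip (-0.62), Skap1 (-0.54) and Src (0.50). Without that mouse Fn1 was at 0.35, Itgb5 at 0.27, Itga9 at 0.56 and Cytip at -0.093, while Vcam1 was at 1.15, Skap1 at -0.70 and Src at 0.55. The median of the 10 subunits was 0.52 in CD16/32HI cells, against 0.09 for all probe sets, and -0.04 against 0.13 in CD16/32LO cells. Without that mouse it was 0.78 against 0.12 in CD16/32HI cells and 0.20 against 0.14 in CD16/32LO cells, where its sign turned.

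The probe sets most like each subunit over the 8 arrays were given by Pearson r, as a description. They were Zxdc for Itgal (0.9996), Unc119 for Itgam (0.990), Rmc1 for Itgax (0.992) and Zfp831 for Itgb2 (0.994). For Itga4 it was Ltb, the lymphotoxin β gene (0.997), for Itgb1 Otulinl (0.986), for Itgav Exosc8 (0.993), for Itga6 Ide (0.990) and for Itga2 Rnf25 (0.992). Itgb7, the dimmest with Itga2, had the lowest best match, Arsa (0.943). With 8 arrays and 21789 probe sets to choose from, values of this size are to be read as a ranking alone.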

How the data were processed

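Tail tumors of 4 TAX-LUC mice, 2 IL-15-/- and 2 IL-15+/+, were sorted by CD16/32 staining, and total RNA of the high and low populations was hybridized to Affymetrix Gene Chip Whole Transcript 1.0ST arrays. The deposited values are log2 signals, which the authors background corrected, normalized and summarized per probe set with RMA in Affymetrix Expression Console. Of 35557 probe sets, 21789 carried 1 gene symbol in the platform annotation and were tested. 1621 with several symbols and 12147 without one were left out. Arrays sharing exactly equal values (11 to 106 a pair) were taken as normalized together. The number of arrays limits the precision.

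Genotypes were compared within each population, over the mean of both arrays of a mouse, and populations within mice, with limma 3.58.1 (R 4.3.3) and Benjamini-Hochberg adjustment over all tested probe sets, called at an adjusted p under 0.05. The 8 arrays shared 1 estimate of the spread. The methods of the study used ANOVA within each population and a 3-fold filter, and their unmoderated form was an alternative. Scripts were tested on simulated data. The pairing of the 2 populations comes from the mouse. Mice with the same replicate number share an age, and the labels name no shared litter or day, so a term for the number was an alternative. The 10 subunits, the lists and the comparison without the IL-15-/- mouse of replicate 1 were chosen with earlier results of these data known. All 10 subunits are named throughout, as are genes of the pathway lists that passed, and otherwise those with the widest differences whose groups did not overlap. Promoter windows and gene names were taken from RefSeq (GRCm38.p6).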

Additional observations from a re-analysis of the deposited data

Results flagged for a closer look

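The genotype difference of Itgal stood out because its sign differed between the populations while the genotypes overlapped in neither. By mean signal the sign also differed for Itgam, Itgb2, Itga4, Itgb7 and Itga6, whose genotypes overlapped in at least 1 population. In CD16/32HI cells both IL-15-/- arrays (7.97 and 7.25) lay above both IL-15+/+ arrays (6.69 and 6.29), and in CD16/32LO cells both IL-15-/- arrays (7.14 and 7.94) lay below both IL-15+/+ arrays (8.03 and 8.01). The difference between the 2 effects was 1.60 on the log2 scale and did not pass the test of that difference (adjusted p = 0.878 from limma). The gap in CD16/32LO cells of replicate 2 was -0.07. The value was 0.84 without the replicate 1 IL-15-/- mouse.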

How the results depend on the processing

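In the 4 genotype and interaction comparisons, 0 subunits were called under every alternative run except 1. With the replicate number as a block (the pairing of genotypes by number) 1 subunit was called over both populations, Itgam, at an adjusted p of 0.0473 (limma). That fit called 214 probe sets (0.982%), against 37 (0.17%) without the block. The block changed the call of no other subunit. Deviations of same-numbered arrays of the 2 genotypes correlated at 0.0556 in CD16/32HI and 0.134 in CD16/32LO cells, with 2 pairs. Without the IL-15-/- mouse of replicate 1 the comparison of CD16/32HI with CD16/32LO called 7 subunits (14.3% of all probe sets). Added after seeing the data, the same comparison called 6 after median centring (14.3% of all probe sets) and 8 after quantile normalization (15.2%). It called 5 without the IL-15+/+ mouse of replicate 1 as well (7.54%). With that of replicate 2 left out instead it called 6 (14.7%), and with the other IL-15-/- mouse left out 6 (10.2%). Leaving out 1 mouse in turn gave 0 to 7 calls, and 0 to 0 in the genotype comparisons. Crossing the numbers of the IL-15-/- CD16/32LO arrays, also added later, called 0.

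Signs turned in these cases. In CD16/32HI cells Itgb1 was at -0.032 after quantile normalization and -0.065 with the normalization set as a block, Itgb7 at -0.044 after centring, -0.049 after quantile normalization and -0.052 with the set block, and Itga6 at 0.96 without the IL-15-/- mouse of replicate 1. In CD16/32LO cells Itgax was at -0.028, -0.059 and -0.15 after centring, quantile normalization and the set block, Itga2 at -0.062 with the set block, and Itgam at 0.38 without that mouse. Over both populations Itgb2 was at -0.015 after quantile normalization. Between populations Itgb7 was at 0.0084 without both replicate 1 mice. The difference of the effects was 0.28 for Itgb1, 0.058 for Itgav, 0.94 for Itga6 and -0.28 for Itga2 without the IL-15-/- mouse of replicate 1. Leaving out 1 array or mouse in turn, values ranged in CD16/32HI cells from -0.43 to 0.82 (Itgb1), -0.031 to 0.21 (Itgb7), -0.12 to 0.80 (Itgav) and -1.16 to 0.96 (Itga6), in CD16/32LO cells from -1.01 to 0.38 (Itgam), -0.24 to 0.42 (Itgax) and -0.40 to 0.92 (Itga2), over both populations from -0.24 to 0.084 (Itga4), -0.0083 to 0.68 (Itgb1) and -0.14 to 0.062 (Itgb7), and between populations from -0.055 to 0.32 (Itgb1, and 0.39 without both replicate 1 mice). The causes were not tested. The filter on a mean signal over 6 left out Itgb7 and Itga2, which therefore have no value under it.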
